A study of Mus musculus with 36 samples.

Results

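The 200 longest coding sequences that ribosomes were measurably translating in unstressed mouse embryonic fibroblasts were followed through hyperosmotic stress and recovery. They were chosen by length alone: of 11037 transcripts listed in any footprint library, 9216 had a mean of at least 2 RPKM (footprint reads scaled by coding length and by the library total) in unstressed cells, and the 200 longest of these were kept, leaving out 1 transcript. The other 9015 transcripts past the same level are called the rest. The members had 2004 to 7718 codons with a median of 2482, against a median of 437 codons in the rest. Just inside the limit lay coding sequences of 6042, 6024 and 6012 nt, and just outside it lay 5985, 5979 and 5964 nt.

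The cells were embryonic fibroblasts of the C57BL/6J strain in growth medium, stressed by sorbitol, a sugar alcohol that draws water out of cells. The stress groups were 2 h at 500 or 600 mOSM, and 15 min or 2 h at 700 mOSM. The recovery groups had 15 min or 2 h of recovery after 700 mOSM for 15 min (the short exposure) or for 2 h (the long exposure), and all were set against unstressed cells, labelled Normal Condition. Each of the 9 conditions had 2 Ribo-seq libraries, which count ribosome-protected mRNA fragments of 28 to 30 nt, and 2 RNA-seq libraries of cytoplasmic RNA. Lysis buffers held cycloheximide, which holds ribosomes on mRNA, and plates of cells were pooled for a lysate.

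A ribosome joins an mRNA near its 5′ end, moves along the coding sequence codon by codon and leaves at the stop codon, so the time a ribosome spends on an mRNA grows with coding length. The footprint density of an mRNA reflects how often ribosomes start, how fast they move and how much of the mRNA there is, and these cannot be told apart from the density alone. Hyperosmotic stress is known to reduce the start of translation.

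Depth ran from 732769 to 9102097 reads per footprint library, lowest at 700 mOSM, and from 6851958 to 55262396 per RNA library. Both footprint libraries of each condition agreed nearly within sampling noise. Their chi-square per degree of freedom averaged 1.003 to 1.082 over all transcripts and 0.961 to 1.181 over members, where noise alone gives about 1. They were counted as 1 sample, so footprint values carry no SD and no test. The RNA pairs differed more, at 3.444 to 47.079 over all transcripts and 3.938 to 89.269 over members, most in unstressed cells. They enter as n = 2. Nothing in the labels makes them separate cultures, and the p-values for RNA measure only the scatter of these libraries, possibly a technical one. Transcripts are named here only by identifier, so fibroblast markers were not checked and no member is given a function.

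In unstressed cells the members were sparsely covered for their RNA. Their median footprint level was 7.44 scaled RPKM with quartiles of 4.01 and 16.3, against 21.7 in the rest, where scaling divides each library by its typical ratio over abundant transcripts. Their RNA had a median of 10.8 FPKM, against 14.5 FPKM in the rest. The log2 footprint level minus the log2 RNA level had a median of -0.44 in members and 0.65 in the rest. Length made up for low density in reads: a member had a median of 983.5 unstressed reads over both libraries, against a median of 485 in the rest. The lowest member had 203 reads, a floor that the limits on level and length largely set. The non-coding part of the transcript was about as long in both, at a median of 1067 nt in members and 1144 nt in the rest, but took 11.8% of a member transcript and 46.2% of a transcript of the rest.

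The share of all footprint reads that fell on the members was highest at 700 mOSM for 15 min. It was 8.75% and 8.76% in the 2 libraries there, against 2.42% and 2.41% in unstressed cells, which is 3.62 times the unstressed share. At 700 mOSM for 2 h the share was 1.58% and 1.56%, or 0.649 times the unstressed share. The libraries of these 3 groups did not overlap. With both libraries pooled, the 95% Wilson interval was 8.72% to 8.80% at 15 min, 1.55% to 1.59% at 2 h and 2.41% to 2.42% in unstressed cells, covering counting error only.

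The share was closer to that of unstressed cells in the milder stresses. The 500 mOSM libraries had 2.36% and 2.38%, and those of 600 mOSM had 1.83% and 1.85%. After the short exposure it was 2.78% in both libraries at 15 min of recovery and 2.65% and 2.64% at 2 h. After the long exposure it was 2.43% and 2.44% at 15 min and 2.49% and 2.48% at 2 h. All 8 recovery libraries thus lay above both unstressed libraries, though the libraries of a pair are not separate samples here. At 15 min after the long exposure the pooled share was only 1.01 times the unstressed share. The Wilson intervals of its libraries were 2.42% to 2.45% and 2.42% to 2.46%. They overlapped the 2.41% to 2.43% of the first unstressed library. Pooled, the interval was 2.42% to 2.45% there and 2.41% to 2.42% in unstressed cells. Whether so small a rise exceeds counting error was not tested.

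**Figure D1:**
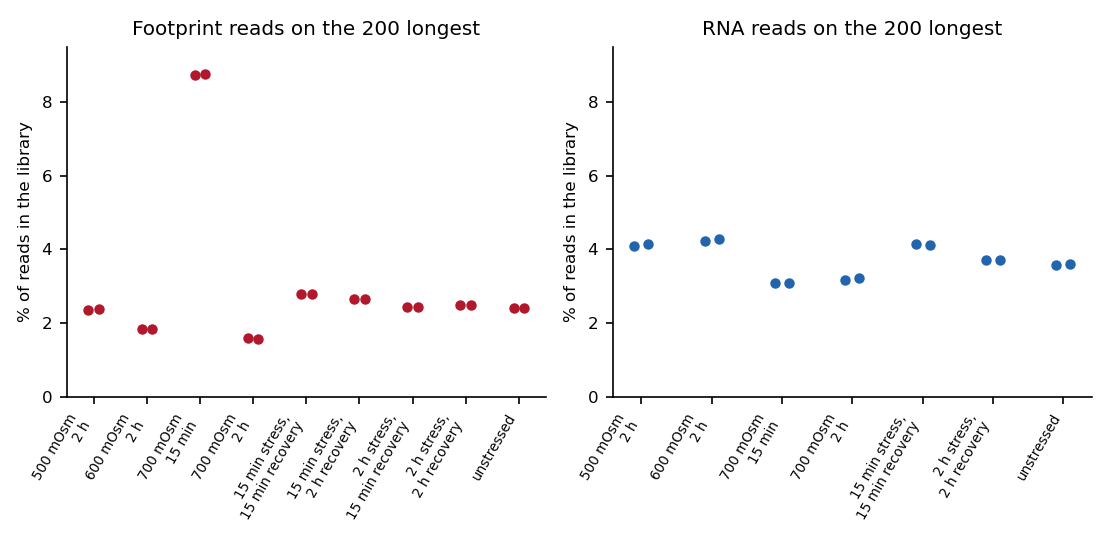
Share of the reads of each library (%) that fell on the 200 longest coding sequences, footprints at left and RNA at right, 1 point per library. RNA of 2 h recovery after the short exposure and of 15 min recovery after the long exposure is left out. The footprint share stands at 8.75% and 8.76% at 700 mOSM for 15 min and at 2.42% and 2.41% in unstressed cells, while the RNA share there was 3.08% and 3.10%, against 3.57% and 3.61% in unstressed cells.

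The RNA share moved against the footprint share at 700 mOSM for 15 min and in both milder stresses. In the other groups compared it moved in the same direction. After 15 min at 700 mOSM the members held 3.09% ± 0.0159 of RNA reads (SD, n = 2), below the 3.59% ± 0.0352 of unstressed cells. They held 3.20% ± 0.0318 after 2 h at 700 mOSM, 4.12% ± 0.0507 at 500 mOSM and 4.25% ± 0.0243 at 600 mOSM. In recovery they held 4.13% ± 0.0324 at 15 min after the short exposure and 3.70% ± 0.00748 at 2 h after the long exposure.

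Nearly all members had, at 700 mOSM for 15 min, a higher footprint level than in unstressed cells. The median member stood at 33.8 and 35.5 scaled RPKM in the 2 libraries, against 7.29 and 7.36 in unstressed cells. The median change was 1.91 on the scale of log2(scaled RPKM + 1), with quartiles of 1.43 and 2.41, against -1.14 in the rest. At least 2-fold higher were 181 of 200 members, where 15.8% of all transcripts past the level were, and 1 was at least 2-fold lower, where 50.9% of all were. Dividing by the scaling factors raised the change of single transcripts by a median of 0.51 over all those past the level. On the values as deposited the median member change was 1.38, with 143 members at least 2-fold higher and 2 lower. Between the 2 libraries of this group, 1 member and 12.6% of the rest differed at least 2-fold.

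**Figure D2:**
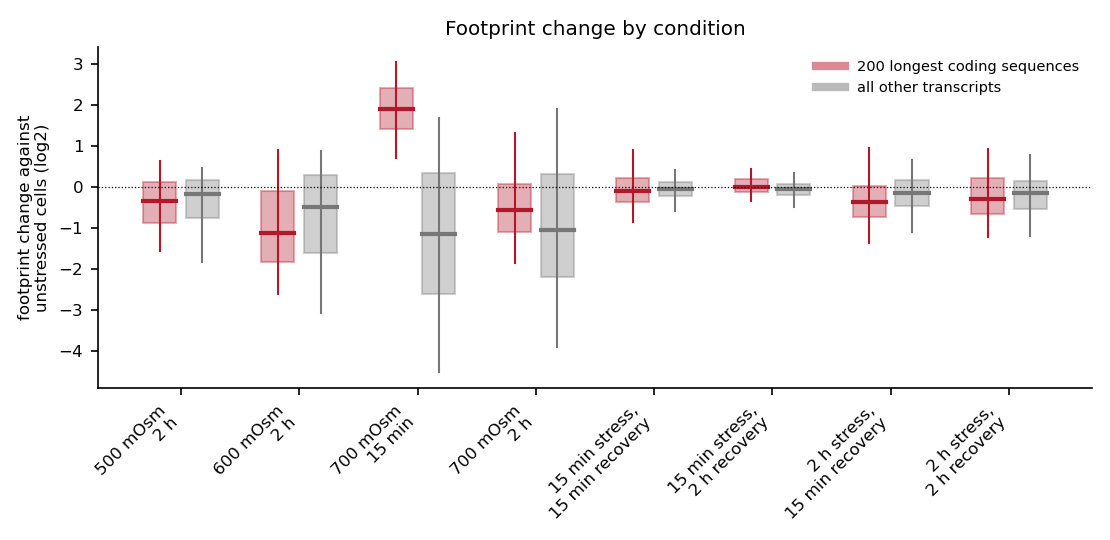
Footprint change against unstressed cells, on the scale of log2(scaled RPKM + 1), for the 200 longest coding sequences (red, left of each pair) and the rest (grey). Lines across the boxes are medians, boxes the quartiles and whiskers the 5th and 95th percentiles over transcripts; at 700 mOSM for 15 min the medians are 1.91 and -1.14.

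The members were no longer high after 2 h at 700 mOSM. Their median level was 5.48 and 5.14 scaled RPKM, below both unstressed libraries. The median change was -0.55, with quartiles of -1.09 and 0.08, against -1.04 in the rest. This gap of 0.48 between members and the rest was 0.07 among transcripts with at least 500 unstressed reads, a limit chosen after seeing the data. There were 15 members at least 2-fold higher, or 7.5% against 15.0% of all transcripts, and 57 at least 2-fold lower, or 28.5% against 50.4% of all. On the values as deposited the members' median was -0.93, with 7 at least 2-fold higher and 93 lower. Members had a median of 25 and 30 reads in the 2 libraries. Between these libraries 9 of 200 members differed at least 2-fold, and 13.9% of the rest did.

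Set directly against each other, 700 mOSM for 2 h was lower than 700 mOSM for 15 min in 194 of 200 members. The median change was -2.42 in members and 0.05 in the rest. At least 2-fold lower were 180 members, where 15.9% of all transcripts were, and 1 was at least 2-fold higher, where 20.8% of all were.

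Of the 2 h exposures, 600 mOSM had the lowest scaled footprint levels of the members, while their share of reads was lowest at 700 mOSM (1.58% and 1.56%). The median level was 4.95 and 5.06 scaled RPKM at 500 mOSM. It was 3.03 and 2.91 for 600 mOSM, and 5.48 and 5.14 for 700 mOSM. At 500 mOSM the median change against unstressed cells was -0.33, against -0.16 in the rest, with 3 members at least 2-fold higher and 38 lower (0.629% and 18.1% of all transcripts). At 600 mOSM it was -1.11, against -0.48 in the rest, with 10 higher and 103 lower (3.32% and 37.6% of all). The share of members at least 2-fold lower was thus 19.0% at 500 mOSM, near that of all transcripts, and 51.5% at 600 mOSM.

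From one osmolarity to the next, 600 mOSM was at least 2-fold lower than 500 mOSM in 51 members and higher in 0, where 19.7% and 1.09% of all transcripts were, with a median change of -0.57. Against 600 mOSM, 700 mOSM for 2 h had a median change of 0.38, with 61 members at least 2-fold higher and 4 lower (14.2% and 22.8% of all). On the values as deposited the members' median was -0.10, so the direction of this change depends on the scaling.

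The change grew with length at 700 mOSM for 15 min, except in the shortest class. Among the members, the 4 classes of 50 from longest to shortest had median changes of 2.24, 1.94, 1.75 and 1.72. The 200 coding sequences next in length, of 1545 to 1995 codons, had a median of 1.27, and the following 400, of 1176 to 1544 codons, 0.58. Below that the median was negative, at -0.38 for 865 to 1176 codons, -1.63 for 585 to 865 codons and -1.88 for 312 to 585 codons. The shortest class, of 26 to 312 codons, broke this order with -0.86. The members thus form the upper end of a gradient that goes on below their limit. The 3 members just inside it had changes of 2.28, 2.31 and 0.46, and the 3 transcripts just outside had 0.95, 1.87 and 0.78.

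Low read numbers in the rest moved with length too, since short coding sequences collect fewer reads. Among transcripts with at least 500 unstressed reads, a limit chosen after seeing the data, the member classes had medians of 2.34, 2.08, 2.01 and 1.85. The classes of the rest, from longest to shortest, then had 1.5, 0.8, -0.19, -1.27, -1.24 and -0.06. The order within the members and down to 585 codons was the same in these better-read transcripts.

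**Figure D3:**
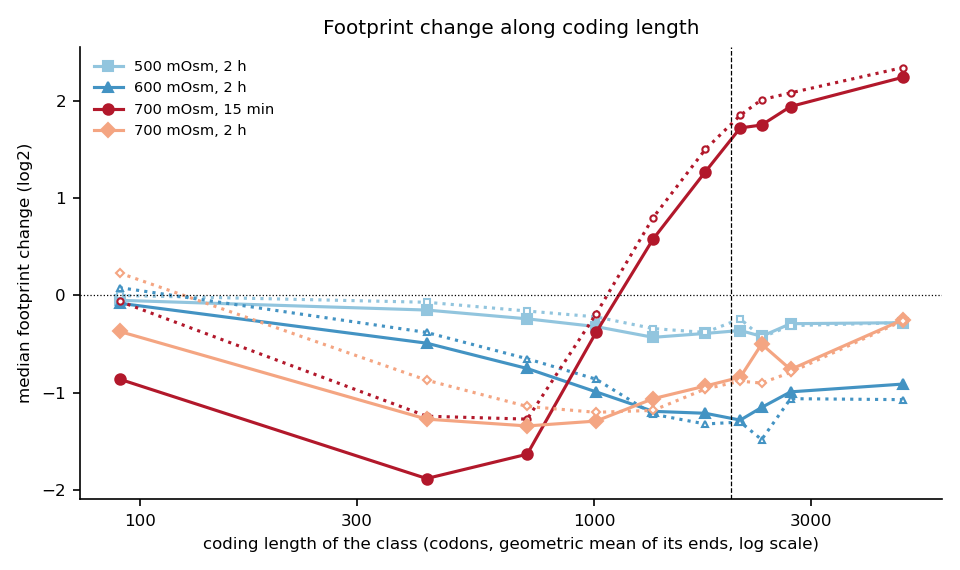
Median footprint change against unstressed cells (log2) for 10 classes of coding length (codons, log scale) in the 4 stress groups; the dashed vertical line is at about the members' lower limit. Filled points are all transcripts and open points on dotted lines those with at least 500 unstressed reads; at 700 mOSM for 15 min the 4 member classes lie between 1.72 and 2.24.

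The other stresses had other profiles along length. After 2 h at 700 mOSM the member classes had medians of -0.25, -0.76, -0.50 and -0.84, and the classes of the rest, from longest to shortest, -0.93, -1.06, -1.29, -1.34, -1.27 and -0.37. The shortest class thus lay above 3 of the 4 member classes, and among transcripts with at least 500 unstressed reads it had 0.23. At 600 mOSM the member classes had -0.91, -0.99, -1.15 and -1.28, and the shortest class of the rest -0.08. At 500 mOSM all 4 member classes lay between -0.42 and -0.28, against -0.05 in the shortest class of the rest. Across the 200 members, which share the same libraries, Spearman's rho between coding length and change was 0.27 after 15 min and 0.22 after 2 h at 700 mOSM, and 0.08 in both milder stresses. Between the unstressed RNA level and the change, rho was 0.36 after 15 min and -0.07 after 2 h at 700 mOSM. It was 0.07 at 500 mOSM and -0.08 at 600 mOSM.

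The 10 longest coding sequences, of 4747 to 7718 codons, were all at least 2-fold higher at 700 mOSM for 15 min, where 15.8% of all transcripts were. Their changes ran from 1.15 to 3.58 with a median of 2.73. The longest, of 7718 codons, changed by 1.45 at 15 min and by 1.36 at 2 h of 700 mOSM. The eighth, of 4883 codons, changed by 3.31 at 15 min and by -1.24 at 2 h. After 2 h at 700 mOSM the 10 had a median of 0.26 and a range of -1.24 to 1.40. Of them, 3 were at least 2-fold higher and 1 lower (15.0% and 50.4% of all transcripts). After 15 min of recovery from the short exposure the median of the 10 was still 0.52, with 3 at least 2-fold higher (0.499% of all transcripts).

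Recovery from the short exposure brought the members close to unstressed levels within 15 min. Their median level was then 7.23 and 6.91 scaled RPKM, against 7.29 and 7.36 in unstressed cells. The median change was -0.10, with 9 members at least 2-fold higher and 5 lower (0.499% and 1.03% of all transcripts). Against 700 mOSM for 15 min itself the median change was -2.04, with 183 members at least 2-fold lower and 2 higher (16.3% and 49.7% of all), while the rest had a median of 1.05. After 2 h of recovery the median was 0.01, with 4 members higher and 0 lower (0.553% and 0.38% of all).

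After the long exposure the members' median footprint change was negative at both recovery times, as was that of the rest. At 15 min the median level was 5.47 and 5.41 scaled RPKM, both below the unstressed libraries. The median change against unstressed cells was -0.35, against -0.13 in the rest, with 10 members at least 2-fold higher and 27 lower, or 5.0% and 13.5%, where 1.46% and 6.53% of all transcripts were. At 2 h it was -0.28, against -0.15 in the rest, with 8 higher and 17 lower. These are 4.0% and 8.5% of members, near the 3.3% and 8.14% of all. Against 700 mOSM for 2 h, the first 15 min of recovery moved the members by a median of 0.19 and the rest by 0.76. There were 28 members at least 2-fold higher and 11 lower (43.5% and 12.8% of all). On the values as deposited the members' median was 0.6.

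At equal recovery times the members' counts past 2-fold between the long and the short exposure were near those of all transcripts. The median difference, long minus short, was -0.24 at 15 min, against -0.07 in the rest, with 1 member at least 2-fold higher and 9 lower (1.18% and 4.2% of all). At 2 h it was -0.29, against -0.11 in the rest, with 4 higher and 13 lower (3.37% and 6.9% of all).

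The non-coding length of the transcript also went with the change. Members were split at their median of 1067 nt into 100 with a short and 100 with a long non-coding part. The median change at 700 mOSM for 15 min was 1.80 in the long group and 2.18 in the short group. At 15 min of recovery from the long exposure it was -0.61 in the long group and -0.09 in the short group, and Spearman's rho between non-coding length and change was -0.44 over the 200 members. That was the most negative of the 8 conditions against unstressed cells, and the other 7 ran from -0.34 to -0.16, the last at 700 mOSM for 2 h.

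RNA of more members fell than rose at 700 mOSM. Of the 200 members, 190 passed the filter on low values (a mean of at least 2 scaled FPKM over the 18 libraries) and 10 did not. By limma with Benjamini-Hochberg adjustment over 9275 transcripts at 0.05, 92 fell and 30 rose after 15 min at 700 mOSM, where 30.5% of all tested transcripts fell and 19.3% rose. The median RNA change was -0.25 in members, against -0.06 over all tested transcripts. After 2 h there, 124 fell and 22 rose, where 31.0% and 18.7% of all did. The median was then -0.64 in members, against -0.05 over all. Between the 2 times, 105 members fell at 2 h relative to 15 min and 32 rose (28.6% and 22.4% of all).

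The milder stresses moved fewer members' RNA. At 600 mOSM 51 fell and 33 rose (9.11% and 3.87% of all), with a median of -0.04. At 500 mOSM 1 fell and 20 rose (1.89% and 1.55% of all), with a median of 0.00. Leaving out 1 unstressed RNA library, replicate 2, gave 30 falls and 47 rises at 500 mOSM.

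In recovery, 1 member fell and 27 rose at 15 min after the short exposure (2.59% and 4.39% of all). Leaving out the first unstressed library gave 14 falls and 44 rises there, and leaving out the second gave 20 falls and 41 rises. At 2 h after the long exposure 40 fell and 31 rose (8.28% and 13.9% of all). Without the second unstressed library these were 68 and 58, and without the second library of that recovery group 23 members fell. For the other 2 recovery groups the deposited names of the RNA libraries and their labels give different conditions, so their RNA is not compared here.

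Along length the RNA moved differently from the footprints. The 4 member classes at 700 mOSM for 15 min, from longest to shortest, had median RNA changes of -0.35, -0.22, -0.23 and -0.17. In the longest class 30 of 48 tested members fell and 1 rose, where 30.5% of all tested transcripts fell and 19.3% rose. In the shortest class 16 of 47 fell and 11 rose, nearer to those shares of all.

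The change in translational efficiency is the log2 change in footprints with that in RNA subtracted. Over 190 members its median at 700 mOSM for 15 min was 2.22, with quartiles of 1.87 and 2.52, against -0.96 in the rest. At least 2-fold higher were 185 members, where 14.1% of all were, and 1 was lower, where 48.4% of all were. After 2 h at 700 mOSM the median was 0.11, against -0.77 in the rest, with 24 higher and 23 lower (13.6% and 43.6% of all). On the values as deposited it was -0.21, so its direction depends on the scaling.

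In the other groups the efficiency followed the footprints. Its median was -0.36 at 500 mOSM, with 2 members higher and 39 lower (0.298% and 18.3% of all). At 600 mOSM it was -1.01, with 3 higher and 96 lower (2.34% and 36.9% of all). At 15 min after the short exposure it was -0.11, with 2 higher and 2 lower (0.344% and 0.654% of all). At 2 h after the long exposure it was -0.21, with 4 higher and 17 lower (0.527% and 8.55% of all).

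Within the members, footprint and RNA changes went together even though their medians lay far apart. Spearman's rho between them over the 200 members was 0.66 after 15 min and 0.48 after 2 h at 700 mOSM. All members share the same libraries, so this is a description.

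**Figure D4:**
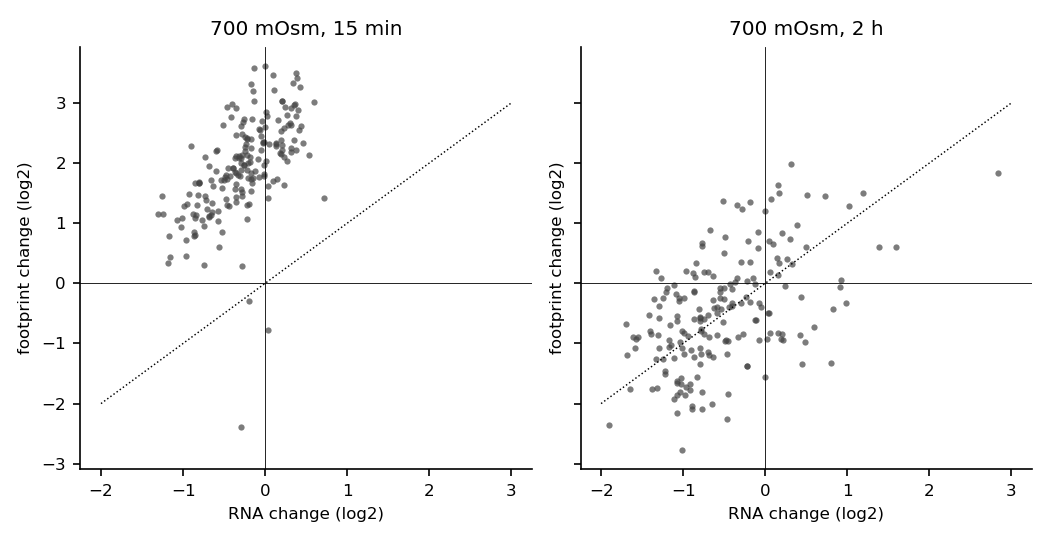
RNA change (x axis) and footprint change (y axis) of each tested member against unstressed cells, both log2, at 700 mOSM for 15 min (left) and 2 h (right), 1 point per transcript; the dotted line marks equal changes. At 15 min the points lie above the line except for a few, with a median efficiency change of 2.22, and at 2 h they lie around it, with 0.11.

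The members at the ends of the footprint range show how far single transcripts depart from the median. ENSMUST00000171332, of 4384 codons, had the highest footprint change at 700 mOSM for 15 min, 3.61. It had 106 and 107 scaled RPKM there, against 8.03 and 7.62 in unstressed cells. Its RNA had 15.1 and 16.6 scaled FPKM at 15 min, within the 12.9 and 19.4 of unstressed cells, with a change of 0.00 ± 0.142 (SE; limma adjusted p = 0.99). At 600 mOSM the same transcript had lower footprints, 1.31 and 1.34 scaled RPKM, while its RNA rose by 1.54 ± 0.146 (SE; limma adjusted p = 4.12e-06).

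ENSMUST00000109690, of 2015 codons, had the lowest change at 700 mOSM for 15 min, -2.39. It was unlisted in 1 library and had 6 reads in the other, against 320 and 342 reads in unstressed cells. With so few reads the size of the change is uncertain: it was -3.53 with a pseudocount of 0.25, and -2.96 and -1.82 from 1 library each. Its RNA had 5.56 and 5.82 scaled FPKM, against 5.66 and 9.19 in unstressed cells, and did not pass the test (limma adjusted p = 0.0921). After 15 min of recovery from the short exposure it was back at 6.01 and 4.46 scaled RPKM, against 6.76 and 6.94 in unstressed cells.

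ENSMUST00000201374, of 2062 codons, had the highest footprint change at 700 mOSM for 2 h, 1.99. It had 169 and 158 scaled RPKM, against 41.3 and 39.8 in unstressed cells, and stood at 331 and 317 at 15 min. Its footprint level was above unstressed cells in all 8 other conditions, with changes of 0.26 to 2.97. Its RNA rose by 0.31 ± 0.075 at 2 h (SE; limma adjusted p = 0.00307).

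ENSMUST00000127430, of 2008 codons, had the lowest change at 700 mOSM for 2 h, -2.77. It had 5.99 and 4.22 scaled RPKM from 21 and 18 reads, against 39.6 and 40.7 in unstressed cells. The same transcript had, at 700 mOSM for 15 min, 201 and 205 scaled RPKM, a change of 2.31. Its RNA had 13.2 and 10.8 scaled FPKM at 2 h, against 28.2 and 22.5 in unstressed cells, and fell by 1.02 ± 0.124 (SE; limma adjusted p = 6.59e-06).

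**Figure D5:**
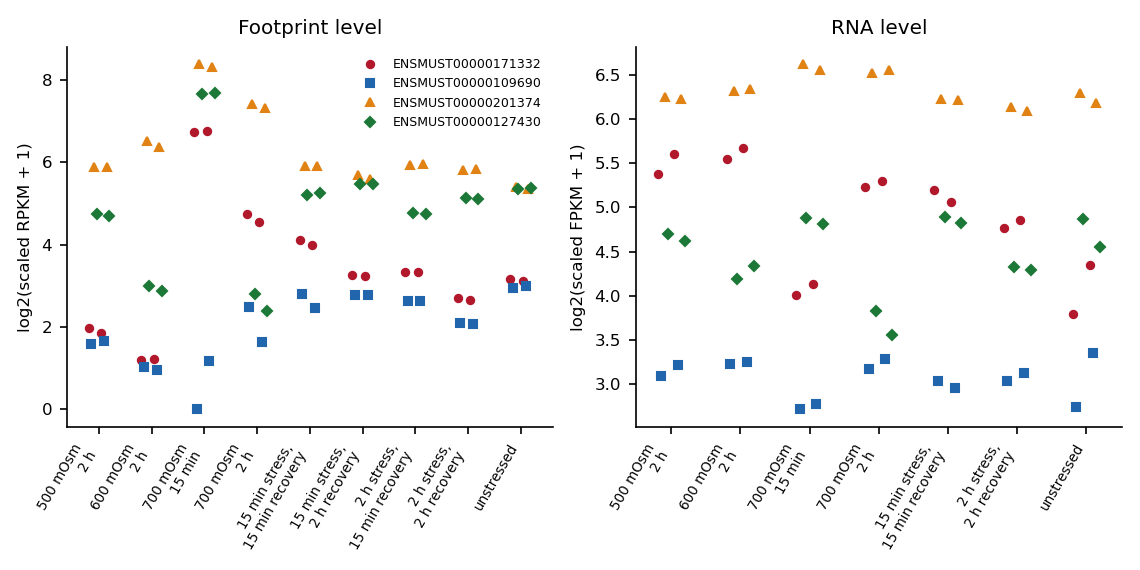
Footprint level (left, log2 of scaled RPKM + 1) and RNA level (right, log2 of scaled FPKM + 1) of the 4 named members, 1 point per library. RNA of 2 h recovery after the short exposure and of 15 min recovery after the long exposure is left out. ENSMUST00000127430 has 201 and 205 scaled RPKM at 700 mOSM for 15 min and 5.99 and 4.22 at 2 h.

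Every member was listed in both libraries of 6 of the conditions. At 600 mOSM 2 members were unlisted in both libraries and 3 in 1, at 700 mOSM for 15 min 1 in 1 library, and at 700 mOSM for 2 h 2 in both and 9 in 1. Where a member was unlisted in 1 library it had at most 13 reads in the other, and unlisted values were set to 0.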

How the data were processed

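The authors deposited 1 list per library of Ensembl transcript identifiers with RPKM over the coding sequence (Ribo-seq) or FPKM (RNA-seq), per the file names. The submitters' processing notes name cutadapt, Bowtie, STAR and GRCm38. The annotation and the counting method: not given in the sources used here. No name table used here holds these identifiers.

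Each deposited value is a whole number of reads over a length and a library total. The total of each library was solved, then each length as the smallest giving whole reads in all its libraries (relative tolerance 1e-09); a true length could be a multiple of it. All 200 member lengths and 9006 of 9015 others were multiples of 3. Lengths and tests were checked on simulated data. Members and lists were chosen with earlier results of these data known.

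Libraries were scaled by median ratio over transcripts above 0 in all 18 libraries of an assay with a mean of at least 10 (4619 for footprints, 5705 for RNA); changes are relative to these and use log2(value + 1), which understates changes of low transcripts. Footprint pairs were compared over transcripts listed in both libraries with at least 40 reads, and then averaged as 1 sample. The RNA test used limma 3.58.1 (R 4.3.3), in 1 fit of 18 libraries with 9 group means, a weight per group, a mean-variance trend and two-sided tests. RNA that "rose" or "fell" passed the threshold. Named transcripts had the highest and lowest footprint change at 700 mOSM for 15 min and for 2 h among members with at least 200 unstressed reads. Other tools were Python 3.11.15, pandas 2.3.3 and scipy 1.17.1.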

Additional observations from a re-analysis of the deposited data

Results flagged for a closer look

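The members' median footprint change against unstressed cells had opposite signs at the 2 exposure times of 700 mOSM, in both libraries of each. It was -0.55 at 2 h and 1.91 at 15 min, and the difference, 15 min minus 2 h, was 2.46. The difference was not tested, since each condition counts as 1 sample.

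Of the 4 named members, ENSMUST00000127430 showed the same reversal in every library, with -2.77 at 2 h and 2.31 at 15 min, a difference of 5.08 (15 min minus 2 h). This difference was not tested either, and the transcript was itself chosen for its low value at 2 h.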

How the results depend on the processing

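Footprint medians at 700 mOSM kept their direction under every alternative run. At 15 min the median of 1.91 became 1.38 on values as deposited, 2.10 for the 100 longest, 1.73 for the 300 longest and 1.77 for the 200 longest with at least 10 RPKM. At 2 h the median of -0.55 became -0.93 as deposited and -0.98 with at least 10 RPKM. With a pseudocount of 0.25 the median at 600 mOSM was -1.36. Members minus the rest, 3.05 at 700 mOSM for 15 min, was 2.79 with at least 100 unstressed reads and 2.60 with at least 500, a limit added after seeing the data, which also gave -0.88 at 600 mOSM and 0.07 at 700 mOSM for 2 h, where the main values were -0.62 and 0.48. Efficiency at 700 mOSM for 15 min was 1.74 as deposited and 2.38 with a pseudocount of 0.25. As deposited it was -0.28 at 500 mOSM and -0.21 at 700 mOSM for 2 h, and -1.31 at 600 mOSM with a pseudocount of 0.25.

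RNA counts against unstressed cells depended most on the fit at 500 mOSM and in recovery. At 500 mOSM rises were 36 with equal weights, 13 with only the 2 groups compared and 50 with voom on recovered reads. Falls there were 2 as deposited, 3 without the filter, 13 with equal weights, 0 with only the 2 groups and 35 with voom. At 15 min after the short exposure falls were 7 without the filter, 11 with equal weights, 0 with only the 2 groups and 27 with voom, which gave 47 rises. Voom gave 53 rises at 600 mOSM, and 51 rises and 74 falls at 2 h after the long exposure. The replicate numbers do not pair the RNA libraries: correlations of same-numbered deviations ran from -0.307 to 0.308 over 36 pairs of groups. With the replicate number as a block, falls at 500 mOSM were 2, against 1 without it, and no other count of rises or falls against unstressed cells moved by over 1.5 times.

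Leaving out 1 replicate in turn gave footprint medians of -0.33 to -0.31 at 500 mOSM, -1.07 to -1.06 at 600 mOSM, 1.92 to 1.94 at 700 mOSM for 15 min, -0.58 to -0.54 at 700 mOSM for 2 h, -0.15 to -0.07 at 15 min after the short exposure, 0.00 to 0.05 at 2 h after the short exposure, -0.35 to -0.33 at 15 min after the long exposure and -0.28 to -0.22 at 2 h after the long exposure. Each footprint pair counts as 1 sample, so these footprint ranges cover little more than counting noise. RNA rises were 18 to 47 at 500 mOSM, 29 to 46 at 600 mOSM, 23 to 35 at 700 mOSM for 15 min, 21 to 31 at 700 mOSM for 2 h, 20 to 44 at 15 min after the short exposure and 23 to 58 at 2 h after the long exposure. RNA falls were 1 to 30 at 500 mOSM, 37 to 70 at 600 mOSM, 73 to 109 at 700 mOSM for 15 min, 126 to 128 at 700 mOSM for 2 h, 1 to 20 at 15 min after the short exposure and 23 to 68 at 2 h after the long exposure. Efficiency medians were -0.37 to -0.36 at 500 mOSM, -1.01 to -0.97 at 600 mOSM, 2.21 to 2.26 at 700 mOSM for 15 min, 0.07 to 0.14 at 700 mOSM for 2 h, -0.12 to -0.11 at 15 min after the short exposure and -0.19 to -0.16 at 2 h after the long exposure.
The cause of these shifts was not tested. Unstressed RNA libraries differed most within a pair and had the lowest group weight, 0.3201.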
